A study of Mus musculus with 4 samples.

Results

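The 8 genes described here are Slc12a1, Kcnj1, Bsnd, Umod, Slc12a3, Ppp1r1a, Tmem52b and Pcp4, out of 18193 genes with a probe set of their own on the array. The first 6 are genes of the loop of Henle and distal tubule, and Tmem52b and Pcp4 were added for their large difference. The genes were picked with the mutant and wild-type values of these same arrays in view, so their differences between the groups are a description and were not tested. They were represented by the 12 probe sets assigned to a single one of them. The grouping does not fully describe its genes. Umod and Slc12a3 had low signal and hardly differed, Slc12a3 belongs to the distal convoluted tubule, and Umod, Ppp1r1a, Tmem52b and Pcp4 do not encode transporters.

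RNA from whole embryonic mouse kidneys was hybridised to 4 Affymetrix arrays at day E14.5 (Theiler stage 22). In the wild-type group (strain CD-1), 2 arrays each held a pool of 2 kidneys. In the mutant group, 2 arrays each held a pool of 12 Wnt4 null mutant kidneys, with the allele Wnt4tm1Amc and the strain given as 129. Genotype, strain and pool size changed together between the groups and cannot be told apart, although the protocol text describes CD-1 matings for every sample. Wnt4 is the signal that turns condensed mesenchyme into the renal vesicle, from which the whole nephron forms, and the comparison was made to find genes of the vesicle and its derivatives.

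In the thick ascending limb, sodium, potassium and chloride enter the cell together through NKCC2, the product of Slc12a1. Potassium is returned to the lumen through the channel ROMK (Kcnj1), chloride leaves on the blood side through channels that need the subunit barttin (Bsnd), and the sodium pump drives the whole cycle. Loss of NKCC2, ROMK or barttin causes the salt-losing disorder Bartter syndrome. Uromodulin (Umod) is the main protein secreted by the same segment, and NCC (Slc12a3) is the sodium-chloride cotransporter of the distal convoluted tubule that follows. At the stage studied the nephrons were young, and the loop had only begun to form.

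Wnt4 itself checks the labels. Its brighter probe set had signals of 1885 and 1770 in wild-type and of 406 and 272 in mutant kidneys. Whether these probes target sequence removed by the allele is not known here. The log2 difference was -2.40 ± 0.18 (SE, limma adjusted p = 0.000196). Array medians lay between 138 and 159. Wild-type levels of the progenitor gene Six2 (2896 to 3760) and the nephron gene Wt1 (2496 to 3195) showed that markers of the labelled organ were present.

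Slc12a1 had the widest separation among the transporters. Its brighter probe set read 1446 and 1943 in wild-type and 81.2 and 120 in mutant kidneys. Both mutant arrays lay far below both wild-type arrays, and the lower wild-type value was 12.1 times the higher mutant value. The group means were 1694 ± 352 and 101 ± 27.4 (SD, n = 2 each), and the log2 difference was -3.88 on the log2(signal + 16) scale, a 14.7-fold lower level. A second probe set for Slc12a1 did not show this. It read 117 and 92.0 in wild-type and 119 and 94.9 in mutant kidneys, so the groups overlapped and the log2 difference was 0.04. The 2 probe sets of this gene disagree, though the second was dim, with each value under the median of its array (138 to 159). Where their targets lie in the transcript was not analysed here.

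Kcnj1, the potassium channel that works beside NKCC2 on the luminal side, also stood apart at its brighter probe set. The signal was 175 and 245 in wild-type and 23.5 and 26.6 in mutant kidneys. The lower wild-type array was 6.58 times the higher mutant array, and the log2 difference was -2.44. Its other probe set was dim everywhere, with 37.8 and 20.2 against 27.2 and 9.33, and the groups overlapped there. Bsnd, the chloride channel subunit on the blood side, read 142 and 192 in wild-type and 30.0 and 37.4 in mutant kidneys. The groups did not overlap, and the log2 difference was -1.87, a 3.66-fold lower level on that scale. Neither Kcnj1 nor Bsnd entered the test across all genes, because their mean over the 4 arrays lay under the level required there, which corresponds to a signal of 94.2.

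Umod and Slc12a3 differed little. The brighter Umod probe set read 108 and 142 in wild-type and 100 and 122 in mutant kidneys, and the groups overlapped. Its log2 difference was -0.14. At the other Umod probe set the values were 99.2 and 135 against 87.8 and 57.5, which did not overlap, with a log2 difference of -0.59. Every value of both probe sets lay under the median of its array (138 to 159), so the Umod signal was low in both groups. Slc12a3 was dim on every array: its brighter probe set read 23.6 and 35.3 in wild-type and 23.2 and 25.5 in mutant kidneys, and its dimmer one 3.07 to 7.66 over all 4. Both probe sets overlapped between the groups, with log2 differences of -0.16 and -0.12. Without wild-type replicate 2 the small differences of Umod and Slc12a3 changed sign at their brighter probe sets, to 0.03 and 0.03.

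Ppp1r1a encodes inhibitor-1, an inhibitor of protein phosphatase 1 that in the kidney is found in the loop and distal tubule. It read 353 and 242 in wild-type and 164 and 175 in mutant kidneys. The mutant arrays were the lower, but the gap to the nearer wild-type array was 1.38-fold, smaller than the gap between the wild-type arrays themselves. The log2 difference was -0.73, which became -0.47 without wild-type replicate 1.

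The genes added for their low mutant signal are not transporters. Tmem52b, which encodes a membrane protein, read 1010 and 911 in wild-type and 9.45 and 10.5 in mutant kidneys, the widest separation of the 8. Its log2 difference was -5.23. Pcp4 encodes a small protein that binds calmodulin and is also abundant in neurons. It read 1230 and 1435 in wild-type and 113 and 80.3 in mutant kidneys, with a log2 difference of -3.59, a 12.1-fold lower level. For comparison, the summed signal of the 5 of 8 neuron and Schwann cell markers with a probe set of their own was 841 and 561 in wild-type and 821 and 889 in mutant kidneys. Of the 3 tested, limma called 0, and 1 was higher at an unadjusted p under 0.05 (the share of all genes at that level is not given here).

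**Figure D1:**
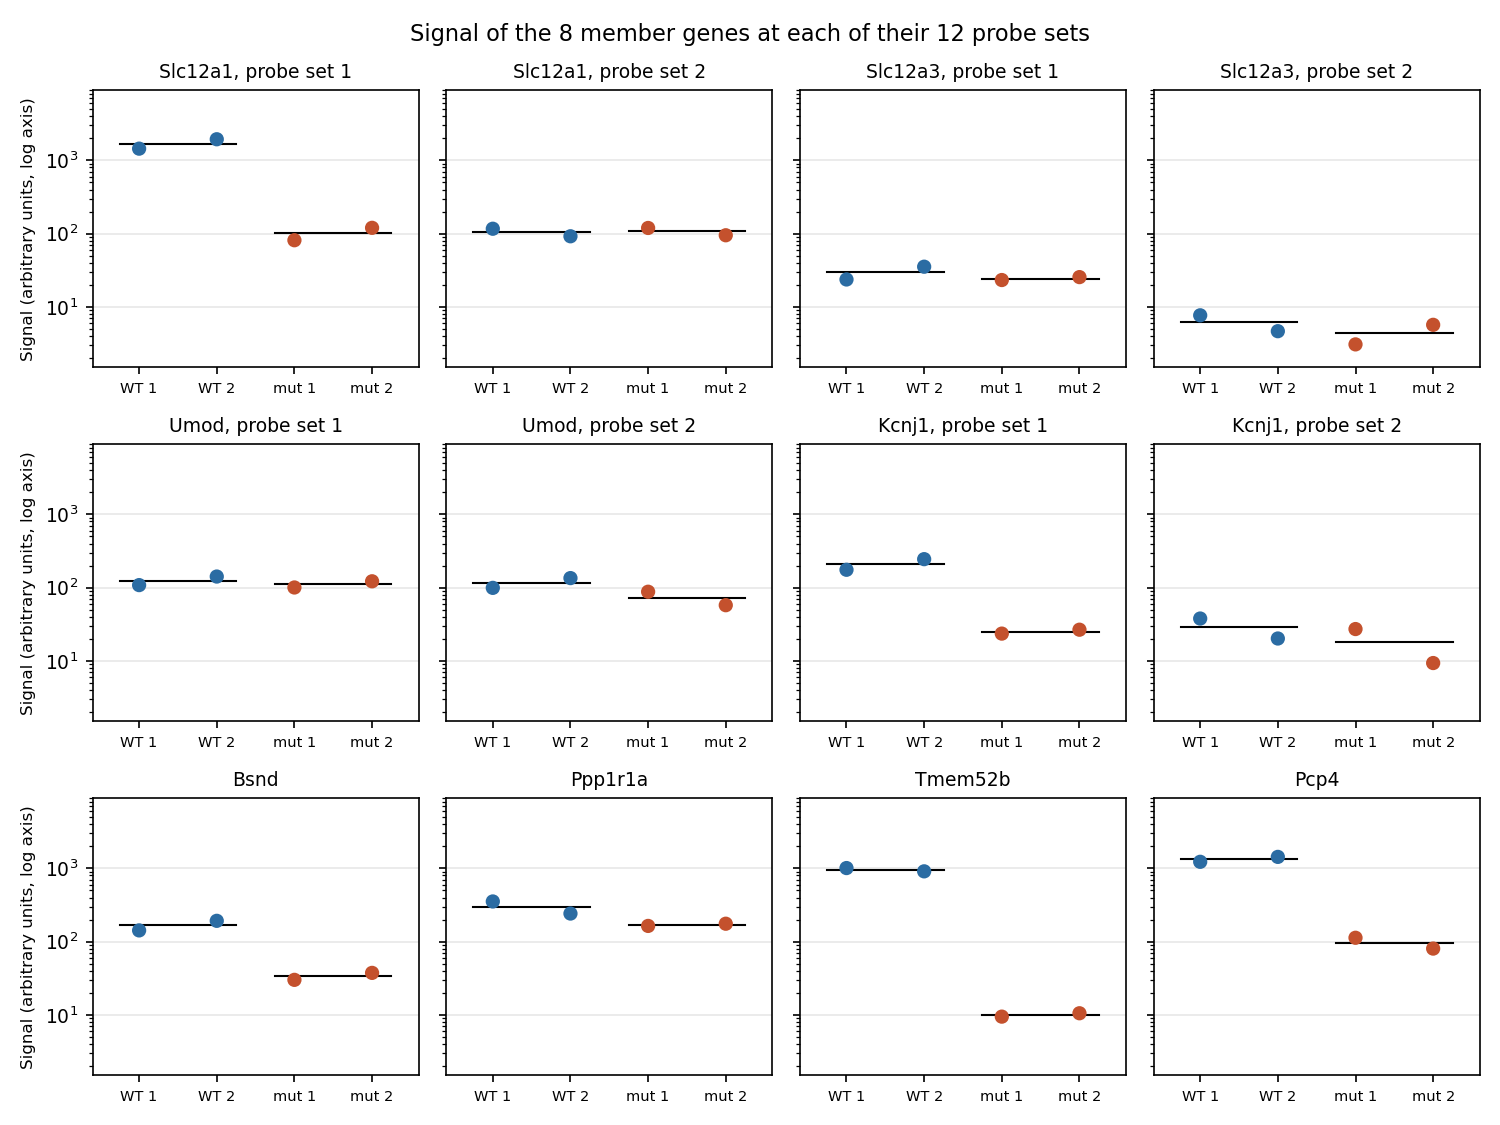
Signal of each of the 12 probe sets on a log axis (arbitrary units) against array, with wild-type in blue, mutant in orange and black lines at the group means (n = 2 each). Slc12a1 and Kcnj1 separate the groups at one probe set and not at the other, Tmem52b has means of 961 and 9.98, and Slc12a3 is dim on every array.

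At the brightest probe set of each gene, both mutant arrays lay under both wild-type arrays for 6 of the 8 genes, all but Umod and Slc12a3. The same was true of 26% of all genes on the array. By probe set it held for 7 of the 12, and for 24% of all probe sets. Of the 8 genes, 5 had a probe set bright enough to be tested (6 of the 12 probe sets), and the fit across all genes placed 3 below its threshold as lower in the mutant, where 5.82% of all genes and 5.39% of probe sets were lower (5.41% of probe sets were higher). Because the genes were chosen on this contrast, none of these counts is read against those shares. The median log2 difference of the 8 was -2.16, and it was -0.0042 over all genes on the array. In order of size the differences ran from Tmem52b through Slc12a1, Pcp4, Kcnj1, Bsnd and Ppp1r1a to Slc12a3 and Umod. Slc12a1 and Pcp4 were close neighbours in that order: leaving out single arrays gave -4.12 to -3.64 for the former and -3.80 to -3.38 for the latter, so their places are not settled. Slc12a3 and Umod likewise differed by less than the spread between arrays. Since whole kidneys were measured, fewer cells of a type and less RNA per cell cannot be told apart.

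**Figure D2:**
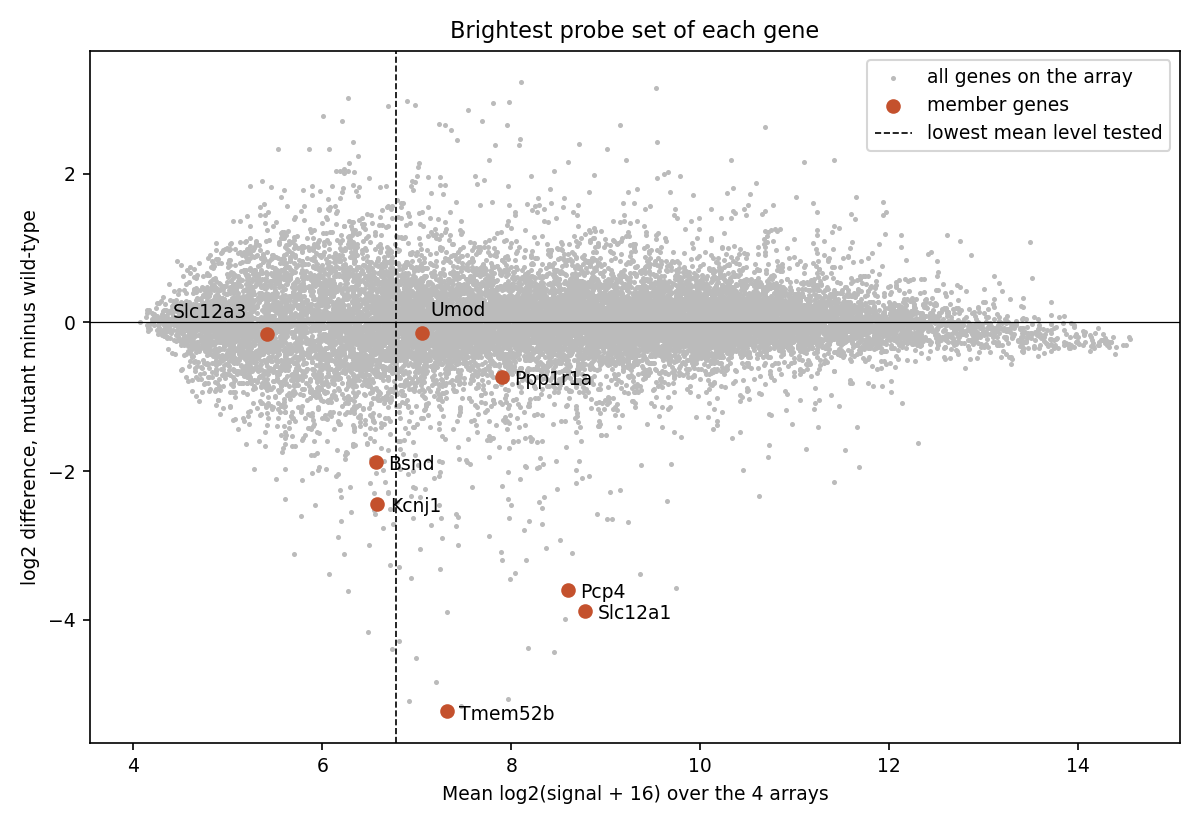
Log2 difference (mutant minus wild-type) against the mean log2(signal + 16) over the 4 arrays, for the brightest probe set of each of 18193 genes (grey) and of the 8 genes described (orange). Tmem52b, Slc12a1 and Pcp4 lie at -5.23, -3.88 and -3.59, Kcnj1 and Bsnd fall just left of the lowest level tested (dashed), and Slc12a3 and Umod lie near 0.

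The sizes depend on the added constant, since many of the mutant signals were low. With 1 in place of 16 the log2 difference of Tmem52b was -6.45, that of Kcnj1 -3.00 and that of Bsnd -2.27. With 64 they were -3.79, -1.61 and -1.24. Slc12a1 and Pcp4 moved less, to -3.41 and -3.12 with 64. Averaging the 2 probe sets of a gene brought Slc12a1 to -1.92 and Kcnj1 to -1.43, because the second probe set of each showed little difference. The direction of all 8 genes stayed the same under these 3 settings.

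**Figure D3:**
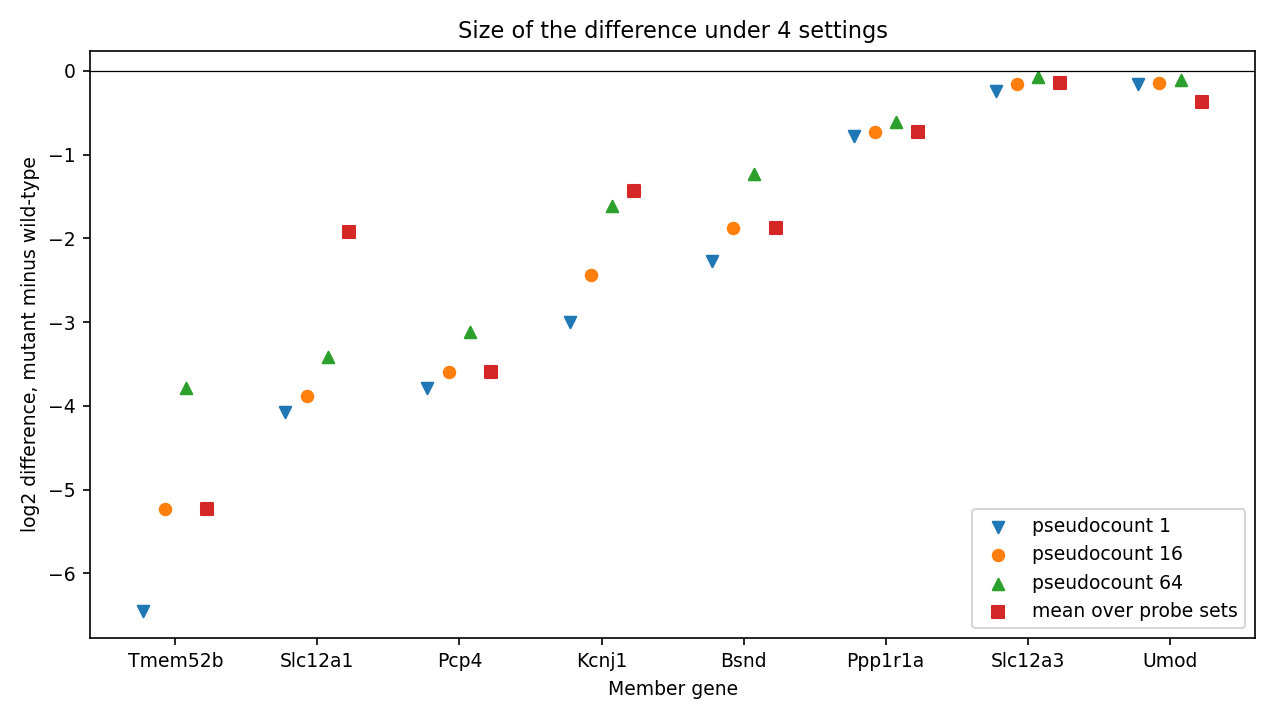
Log2 difference (mutant minus wild-type) of each gene with an added constant of 1, 16 or 64, and with the mean over all its probe sets. Every point lies below 0, and Tmem52b spreads widest over the constants, from -6.45 to -3.79.

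The wild-type arrays also differed from each other. Wild-type replicate 2 was the higher for 6 of the 8 genes (Slc12a1, Kcnj1, Bsnd, Umod, Slc12a3 and Pcp4), with a median log2 difference between the wild-type arrays of 0.36 over the 8. Over all genes replicate 2 was the higher for 48.2%, with a median of -0.01, and over the other loop and distal genes listed below for 26 of 58. Slc12a1, Kcnj1 and Bsnd differed between the wild-type arrays by 0.42, 0.45 and 0.40. These values come from the same pair of arrays and are not independent of each other.

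The promoters of the 3 genes with the widest differences and of Umod, which hardly differed, are shown for their base content. Of the 8 genes, 6 were matched in the RefSeq table (GRCm38.p6), and Ppp1r1a and Bsnd were not. In the 250 bases before the annotated start, CG, the dinucleotide that can be methylated, is in capitals. It reads the same on both strands. This property was chosen after the sequences had been seen. The Slc12a1 promoter is at chr2:125152350-125152599 (plus strand) and holds 4 CG.
Slc12a1: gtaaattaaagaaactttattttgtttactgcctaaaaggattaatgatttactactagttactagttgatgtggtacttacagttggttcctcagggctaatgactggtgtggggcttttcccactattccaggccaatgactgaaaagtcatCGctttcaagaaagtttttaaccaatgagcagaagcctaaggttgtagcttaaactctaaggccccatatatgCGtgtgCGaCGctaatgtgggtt
The Tmem52b promoter is at chr6:129512307-129512556 (plus strand) and holds 1.
Tmem52b: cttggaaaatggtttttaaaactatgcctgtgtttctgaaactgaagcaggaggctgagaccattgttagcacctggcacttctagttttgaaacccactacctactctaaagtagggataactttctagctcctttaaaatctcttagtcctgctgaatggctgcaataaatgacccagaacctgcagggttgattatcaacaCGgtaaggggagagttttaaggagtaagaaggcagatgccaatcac
The Pcp4 promoter is at chr16:96467356-96467605 (plus strand) and holds 3.
Pcp4: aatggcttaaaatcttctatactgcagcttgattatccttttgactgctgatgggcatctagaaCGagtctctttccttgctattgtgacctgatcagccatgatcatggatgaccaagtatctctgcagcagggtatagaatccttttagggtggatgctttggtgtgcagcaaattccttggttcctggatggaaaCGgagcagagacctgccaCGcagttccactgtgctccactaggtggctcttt
The Umod promoter is at chr7:119479263-119479512 (minus strand) and holds 0.
Umod: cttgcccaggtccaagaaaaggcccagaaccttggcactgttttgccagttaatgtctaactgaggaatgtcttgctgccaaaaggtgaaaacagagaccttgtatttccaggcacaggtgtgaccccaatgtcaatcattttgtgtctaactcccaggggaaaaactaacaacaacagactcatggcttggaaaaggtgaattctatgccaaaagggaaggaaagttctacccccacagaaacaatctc
Kcnj1 held 2 and Slc12a3 held 3, so the 6 promoters had 0 to 4 CG. The median over the 32841 promoters of the table was 6, and 44.4% of them held at most 4. G or C made up 39.6% of the bases in Slc12a1, 42.4% in Tmem52b, 46.8% in Pcp4 and 45.2% in Umod, and the median over all promoters was 52.4%. Methylation was not measured here.

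The genes around these transporters were taken from 6 lists of the segment, 65 genes in all, of which 58 had a probe set of their own and 51 were tested. In the mutant 13 were lower and 5 higher (limma adjusted p, 2 arrays against 2). Of all 13432 genes tested, 5.82% were lower and 6.7% higher. The lists were chosen with earlier results of these data known, so these counts are a description. The transcription factor list gave 8 of the 13 lower genes. The median log2 difference was -0.13 over the 51 genes and 0.00 over all genes tested. Without either mutant array, and without the intensity trend of the fit, 2 or 3 were higher, while the count of lower genes stayed between 11 and 13.

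**Figure D4:**
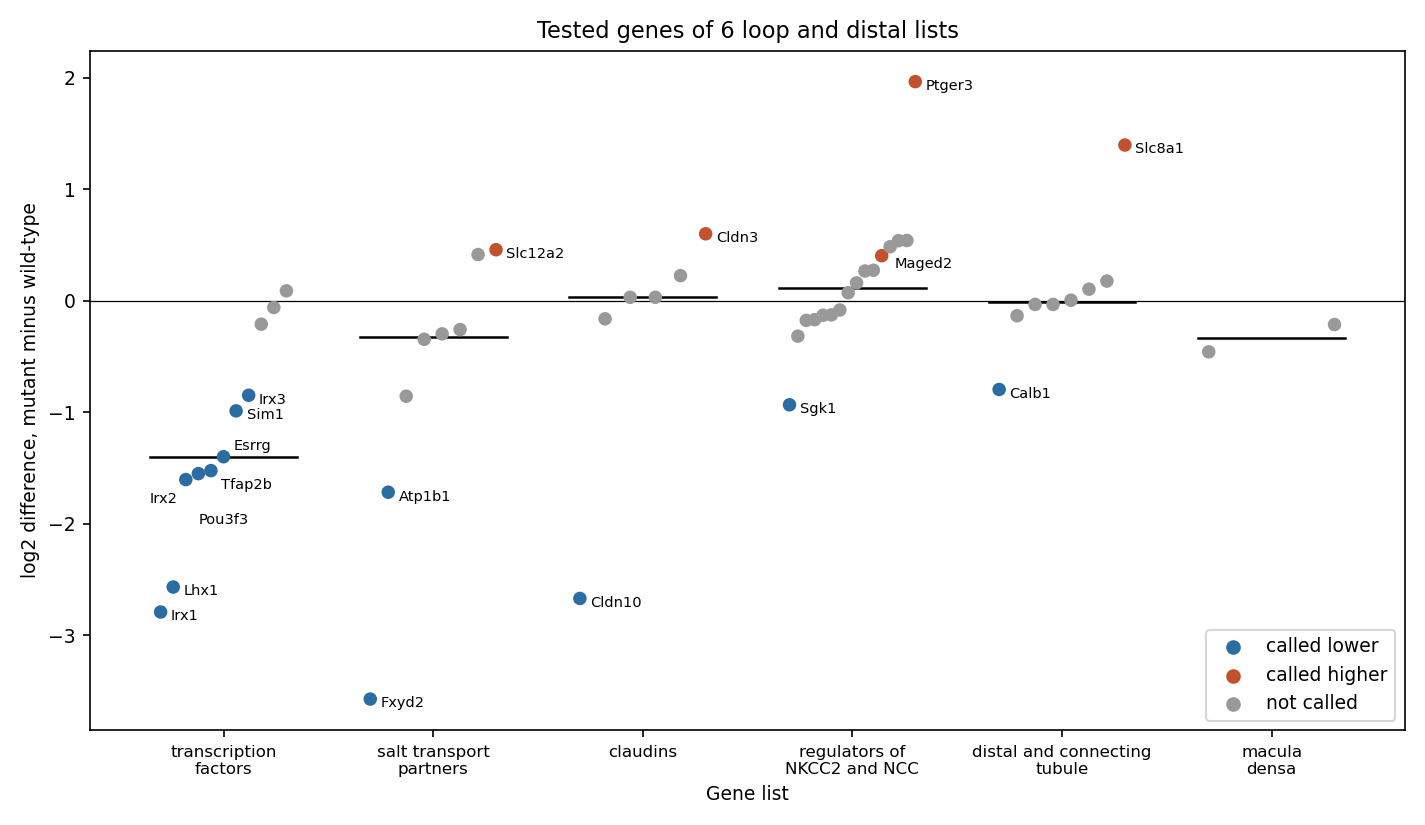
Log2 difference (mutant minus wild-type) of the tested genes of each list at their brightest tested probe set, with genes called lower in blue, called higher in orange, not called in grey, and the list median as a black line. The transcription factor list lies lowest, with a median of -1.40, and the regulators of NKCC2 and NCC centre near 0.

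Partners of the 3 transporters in salt reabsorption went in both directions. Of 8 tested, 2 were lower and 1 higher. Fxyd2, the gamma subunit that modulates the sodium pump, read 3024 and 2836 in wild-type and 232 and 232 in mutant kidneys. The difference was -3.57 ± 0.11 on the log2 scale (SE, limma adjusted p = 5.77e-06). Atp1b1, the beta subunit of the pump, fell from 5370 ± 608 to 1619 ± 37.6 (log2 difference -1.72, limma adjusted p = 6.68e-05), and 3 of its 4 further tested probe sets were lower too. Both genes are also expressed in other tubule segments. Slc12a2, the NKCC1 relative of Slc12a1 found in many cell types, was 1.37-fold higher, a call lost without either mutant array (limma adjusted p = 0.117 and 0.0685) after centring each array on its median (0.0659) and without the trend (0.144). Its other 2 tested probe sets did not pass. The potassium-chloride cotransporter Slc12a4 read 466 ± 1.51 and 627 ± 22.6 (adjusted p = 0.0915). Kcnj10, a basolateral potassium channel, read 152 and 239 against 83.0 and 116, which did not overlap (adjusted p = 0.133).

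Paralogues of the 8 genes were compared in the same way. Of 18 with a probe set of their own, 11 were tested, and limma called 0 lower and 1 higher (Slc12a2). At an unadjusted p under 0.05, 2 were lower (Kcnj10 and Slc12a7) and 2 higher (Slc12a2 and Slc12a4). The share of all genes at that unadjusted level is not given here, so these counts are not read as a result about the paralogues. Slc12a7 read 943 ± 1.99 and 786 ± 27.1 (adjusted p = 0.194). The median log2 difference of the 11 was 0.04. Whether Slc12a1 differs from its paralogues was not tested.

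Claudins, which set the ion selectivity of the path between cells, showed 1 lower and 1 higher gene of 6 tested. Cldn10, a claudin of the thick ascending limb and proximal tubule, read 667 and 782 in wild-type and 90.3 and 111 in mutant kidneys, with no overlap. Its log2 difference was -2.67 ± 0.20 (SE, limma adjusted p = 0.000206). Cldn16, the claudin of magnesium and calcium reabsorption in this limb, read 163 and 281 against 30.6 and 16.1, with no overlap, and like Kcnj1 and Bsnd it lay under the level tested. With no filter on low signal its limma adjusted p was 0.0257. Its partner Cldn19 read 15.3 and 174 in wild-type and 87.7 and 80.6 in mutant kidneys, so the wild-type arrays disagreed and the groups overlapped. Cldn3, a general epithelial claudin, was 1.52-fold higher at its brightest probe set and higher at all 4, though that call was lost without either mutant array (limma adjusted p = 0.0616 and 0.106), without the filter (0.0568) and without the trend (0.150). Cldn7 read 2712 ± 152 and 2424 ± 133 (adjusted p = 0.326), and Cldn14, 152 ± 34.4 and 181 ± 51.9 (adjusted p = 0.697).

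Regulators of NKCC2 and NCC mostly did not pass, with 1 lower and 2 higher of 16 tested. Sgk1, the aldosterone-induced kinase, fell from 1468 ± 187 to 760 ± 57.4 (log2 difference -0.93, limma adjusted p = 0.00329, and 0.0579 without the trend). Ptger3, a prostaglandin E2 receptor, rose from 84.3 ± 15.1 to 374 ± 8.66, a log2 difference of 1.97 ± 0.24 (SE, limma adjusted p = 0.00197). Maged2, whose loss causes a transient antenatal Bartter syndrome, was 1.32-fold higher, but not without either mutant array (limma adjusted p = 0.115 and 0.119) nor after centring each array on its median (0.102) or without the trend (0.160), and only at 1 of its 2 tested probe sets. Cab39l, a scaffold of the kinases that phosphorylate these cotransporters, read 445 ± 58.7 and 652 ± 17.9 (adjusted p = 0.0557).

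Genes of the distal convoluted and connecting tubule gave 1 lower and 1 higher of 8 tested. Calb1, a calcium-binding protein that the ureteric bud also makes, fell from 5459 ± 28.8 to 3141 ± 100 (limma adjusted p = 0.000727), with 1 of 3 tested probe sets passing. Slc8a1, a sodium-calcium exchanger also found in muscle, was 2.63-fold higher (limma adjusted p = 0.00244), again at 1 of 3. Egf, a product of the mature distal tubule, read 129 ± 0.37 and 148 ± 12.6 (adjusted p = 0.739), and Scnn1b, a subunit of the epithelial sodium channel, 601 ± 4.88 and 548 ± 52.5 (adjusted p = 0.612). S100g, the small calcium-binding protein calbindin-D9k, was chosen after its values were seen: it read 417 and 535 in wild-type and 9.08 and 5.74 in mutant kidneys, and lay under the level tested. With no filter its limma adjusted p was 0.00222. Without the filter 15 of 58 genes of the 6 lists were lower, the same 13 together with Cldn16 and S100g, against 3.02% of all genes. Of the macula densa genes, 0 of 2 tested passed, and 0 did at an unadjusted p under 0.05. Nos1, the neuronal nitric oxide synthase, read 370 ± 50.5 and 320 ± 73.8 and Pappa2, a secreted protease, 177 ± 86.1 and 118 ± 22.0.

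Transcription factors of the middle and distal nephron were the list with the most lower genes, 8 of 11 tested. By limma 0 were higher, and 0 were higher at an unadjusted p under 0.05. Of all genes tested, limma called 5.82% lower and 6.7% higher. This list too was chosen with earlier results of these data known, so its count is a description. The median log2 difference of the list was -1.40. Irx1, a homeobox factor of the middle nephron, read 639 and 814 in wild-type and 69.4 and 117 in mutant kidneys (log2 difference -2.79 ± 0.26 SE, limma adjusted p = 0.000517). Lhx1, needed from the renal vesicle onwards, read 1236 and 1071 against 193 and 170, and its other tested probe set was lower as well. Pou3f3, a POU factor needed for the loop and distal tubule, fell from 2206 ± 178 to 742 ± 15.4, and Tfap2b, a factor of the distal tubule, from 825 ± 83.9 to 277 ± 21.4 (limma adjusted p = 0.000128 and 0.000747). Their dimmer probe sets did not pass (0.0607 and 0.201). Esrrg, Irx2, Irx3 and Sim1 were the others, with log2 differences from -1.60 to -0.85, and the call of Sim1 was lost without mutant replicate 1 (limma adjusted p = 0.0821) and without the trend (0.0757). The second tested probe sets of Esrrg (log2 difference -0.28) and Sim1 (-0.53) did not pass (limma adjusted p = 0.549 and 0.183). Mecom, Esrrb and Tfap2a did not pass.

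**Figure D5:**
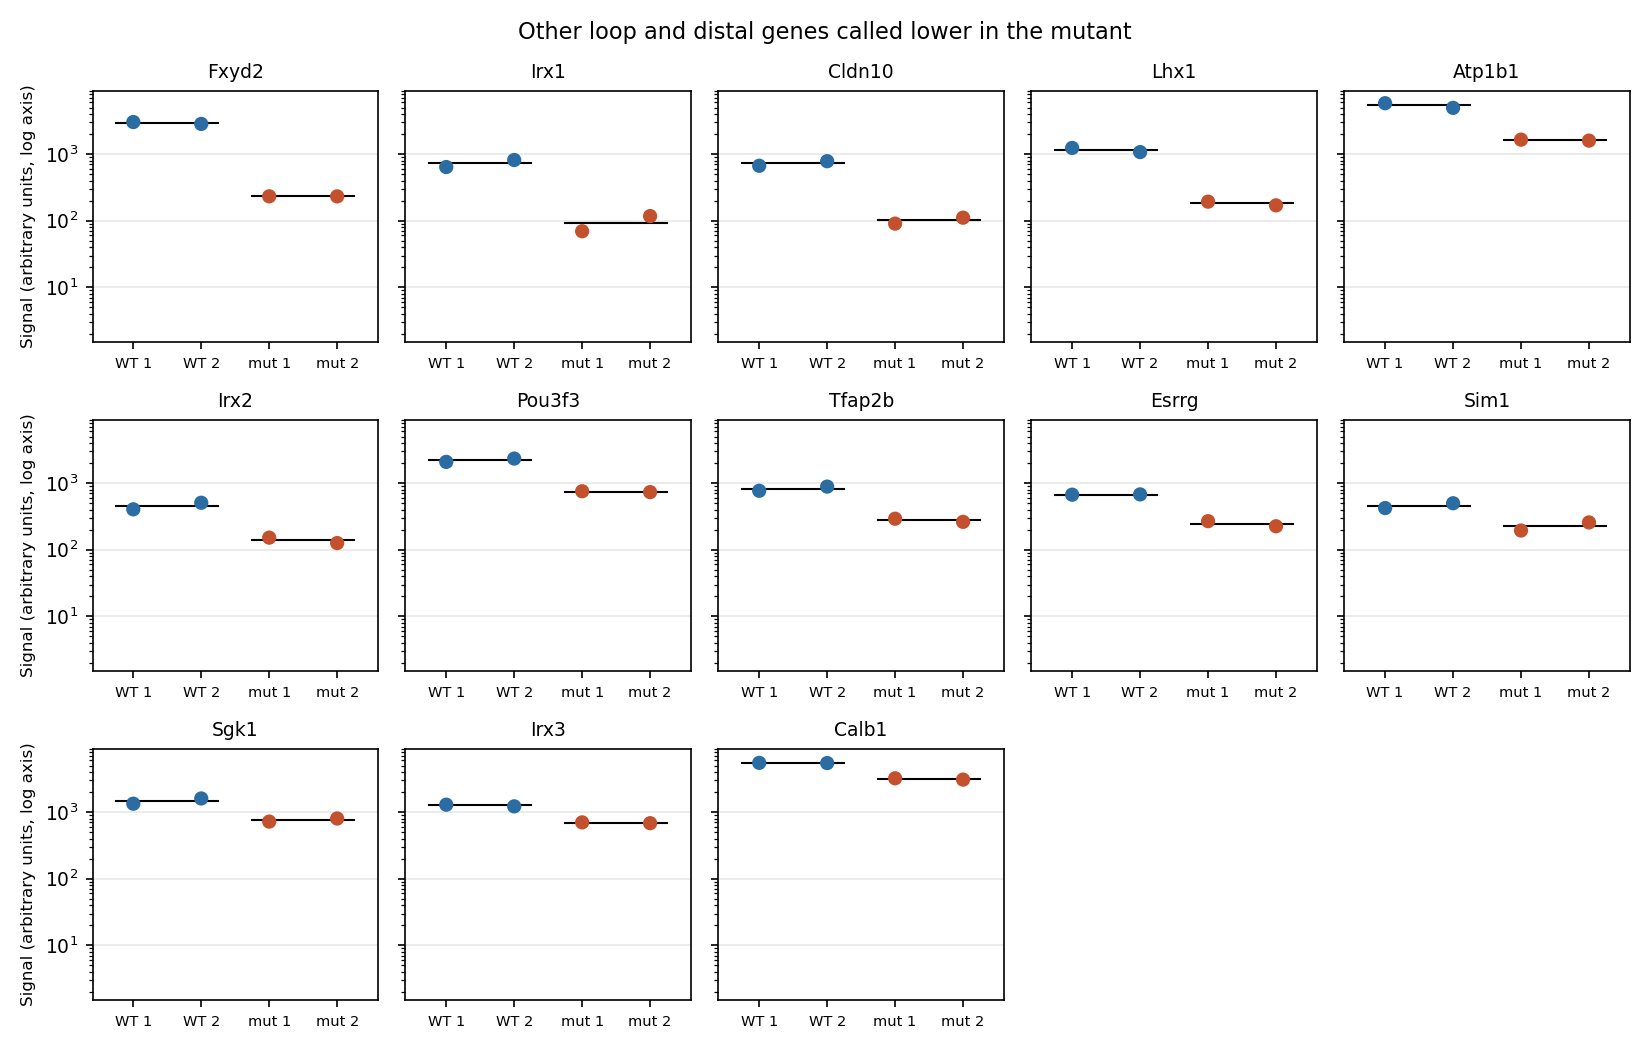
Signal on a log axis (arbitrary units) of the 13 other loop and distal genes called lower, on each wild-type (blue) and mutant (orange) array, with black lines at the group means (n = 2 each). In every panel both mutant points lie under both wild-type points, from Fxyd2 with means of 2930 and 232 to Calb1 with 5459 and 3141.

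The genes whose profile over the 4 arrays was nearest to the mean profile of the 8 were Acsm2, Cdkl1, Dkk1, Folr1 and Slc16a12, with distances of 0.17 to 0.27 on the log2 scale. The measure was the Euclidean distance between log2 values less each gene's own mean. Acsm2 read 492 and 621 in wild-type and 111 and 120 in mutant kidneys. Dkk1, a secreted Wnt antagonist, read 1230 and 1225 against 253 and 233. Kcnj1 and Bsnd lay at 0.26 and 0.42 from the mean profile, while Tmem52b (2.98), Umod (2.12) and Slc12a3 (2.10) were farthest, so the mean describes the middle of the group and not its ends. With 4 arrays in 2 groups, such a distance mainly compares the size of the difference.

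Markers of other cell types also differed, lower in some lists and higher in others, and their part in the results was not tested. By limma, 5.82% of all genes tested were lower and 6.7% higher. The marker lists were chosen with earlier results of these data known, so their counts are a description. Proximal tubule markers were lower for 6 of 8 tested and their summed signal was 6907 and 7189 in wild-type and 1055 and 1128 in mutant kidneys. The call of Slc22a6 was lost without wild-type replicate 2, without mutant replicate 1 and without the filter (limma adjusted p = 0.107 without the filter). That of Hnf4a was lost without the trend (0.0510). Podocyte markers were lower for 4 of 5, with sums of 7347 and 6962 against 3476 and 3228. The call of Synpo was lost without wild-type replicate 2 (limma adjusted p = 0.0625), without mutant replicate 1 (0.141) or 2 (0.0623), without the trend (0.0768) and without the filter (0.0524). Ureteric bud and collecting duct markers were lower for 0 of 9 by limma (2 at an unadjusted p under 0.05) and higher for 2, with sums of 11208 and 10093 against 12429 and 11944. The higher genes, Krt18 and Krt8, were not called without either mutant array. Both calls were also lost after centring each array on its median (limma adjusted p = 0.131 and 0.169) and without the trend (0.172 and 0.214). Krt8 was not called without the filter either (0.0868). Ret did not pass at its brightest tested probe set, but its other tested probe set was lower (441 to 213, log2 difference -1.00, limma adjusted p = 0.00992). Stroma markers were higher for 4 of 7 (34608 and 31138 against 47305 and 47215), skeletal muscle markers for 5 of 7 (2149 and 1287 against 7515 and 6884) and erythroid markers for 3 of 5 (10175 and 9972 against 22745 and 23796). The call of Tnnt1 in the muscle list was lost without mutant replicate 1 and without the filter (limma adjusted p = 0.0732 without the filter). Without the trend, the calls of Myl1 in the muscle list (0.0574) and Dcn in the stroma list (0.0873) were lost. Progenitor markers went both ways, with 2 lower and 1 higher of 6, and sums of 12403 and 10935 against 9535 and 8486. The higher gene, Osr1, was not called without mutant replicate 2. Without the trend, Osr1 and the lower gene Cited1 were not called (limma adjusted p = 0.0621 for each). Of 3 tested adrenal markers, Mc2r was lower (limma adjusted p = 0.0315). That call was lost without the trend (0.0525) and without the filter (0.0907), and also without wild-type replicate 1 or without mutant replicate 2. Over the 5 adrenal markers with a probe set of their own, the sums were 753 and 765 against 531 and 589. Of the 28 marker genes called in all, 17 were lost under none of the 11 settings tried. Cubn is counted among these, although it was not tested with an added constant of 1. No marker was listed at 0, the lowest single signal being 13.9 for the proximal tubule list.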

How the data were processed

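RNA of pooled kidneys was amplified in 1 round and labelled with biotin, per the labels' protocols. The deposited values are linear signal intensity, 1 for each probe set on each array. The submitters' processing notes name GCOS. Its version and settings are not given in the sources. Trimmed of 2% at each end, the means were 498 to 499 on all 4 arrays, so arrays had been scaled alike. Detection calls were not used.

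Signals were analysed as log2(signal + 16). The 64 control probe sets and the lowest 40% by mean were left out, leaving 27022 of 45101. Groups were compared with limma 3.58.1 in R 4.3.3 (lmFit, eBayes with trend, two-sided, Benjamini-Hochberg over all tested probe sets, threshold 0.05). A gene was represented by its brightest tested probe set, or, for the 8 genes, its brightest probe set. Counts at an unadjusted p under 0.05 are given without the share of all genes at that level and are not read as results. An exact test of 2 against 2 arrays cannot give a two-sided p below 0.333. The labels do not say whether pools came from separate litters, and the p-values therefore reflect only how far these pools differ, which may be technical.

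Names came from the platform annotation, updated by gene identifier through RefSeq (GRCm38.p6), and 34945 probe sets had a single gene. The 8 genes and all lists were chosen with earlier results of these data known. Named genes were the 8, Wnt4, a few fixed partners (some are not reported here), up to 4 genes of each list with the smallest p and the 5 nearest profiles. The cell type markers and further transcription factors were named outside this rule. Alternatives tried were centring each array on its median, quantile normalization, added constants of 1 and 64, no filter, no trend, a replicate block, the mean over probe sets, and leaving out each array.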

Additional observations from a re-analysis of the deposited data

How the results depend on the processing

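The number of arrays and, for Slc12a3, Umod, Kcnj1 and Bsnd, low signal limit the precision. The median log2 difference of the 8 genes (-2.16) was -2.63 with an added constant of 1, -1.42 with 64 and -1.65 with the mean over probe sets. Leaving out single arrays gave -2.37 to -1.95. Without the intensity trend 433 probe sets were lower and 425 higher, in place of 1457 and 1463. Leaving out 1 array gave 815 to 1877 lower and 664 to 2050 higher. Of the 51 other loop and distal genes, 5 were higher, but 3 with arrays centred on their medians, 2 without the trend, 2 with the mean over probe sets and 2 to 7 when 1 array was left out. The cause was not tested. The count of lower genes in these lists stayed between 11 and 15 under every alternative, and their median between -0.16 and -0.08. The number of listed genes tested was 52 with an added constant of 64 and 58 without the filter, where 14 and 15 were lower. In all, 121 of 146 recomputed values stayed near the main ones. For counts this meant a similar size, and for log2 differences a move smaller than the spread between arrays. Direction and side of the threshold were not part of that rule. No called value reversed, and 2 uncalled ones, both among the 121, changed sign: without wild-type replicate 2, Slc12a3 was at 0.03 and Umod at 0.03. The replicate numbers do not pair the arrays: deviations of same-numbered arrays correlated at -0.02, and with the replicate number as a block 1409 probe sets were lower and 1504 higher, with 13 and 5 of the listed genes.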
